A study of Mus musculus with 466 samples.

Results

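The depots labelled mesenteric and perigonadal fat of obese male C57BL/6J mice were compared before any caloric restriction. The comparison takes the 12 day 0 arrays labelled mesenteric adipose and the 11 day 0 arrays labelled perigonadal adipose, 23 of the 466 arrays of the series. Members were chosen by title, and arrays were paired by the replication ID in the title, which gave 11 mice with both depots (5 with an ID opening with N and 6 with J). Mouse N6 has an array labelled mesenteric alone, so it enters the levels and the normalization but not the paired fit. All 23 arrays share strain, sex and day, and no group had been restricted. The labels give no age, diet or body weight, and they do not say what J and N stand for. Biotin-labelled total RNA was hybridised to Affymetrix arrays, and the other tissues of the series are liver, hypothalamus and the subcutaneous and perirenal depots, followed up to day 60 of restriction. The comparison asks how the 2 depots differ at the obese baseline from which the time course starts.

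White fat depots differ in their embryonic origin and in the tissues that touch them. Visceral fat is covered by mesothelium, a sheet of cells that expresses the transcription factor gene Wt1 and the uroplakin gene Upk3b, whereas subcutaneous fat lacks this cover and expresses the transcription factor gene Tbx15 at a higher level. Perigonadal fat of male mice lies against the epididymis, whose epithelium makes the sperm-maturation protein Adam7 and several lipocalins. Mesenteric fat lies along the gut, whose epithelium makes the fatty acid binding protein Fabp2.

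Values are linear intensities, and each array averages about 1 over its probe sets. Arrays of 1 label resembled each other closely, with correlations of log2 values from 0.986 to 0.999 within the depot labelled mesenteric and from 0.995 to 0.999 within that labelled perigonadal, against 0.957 to 0.983 between the depots. Before normalization the dim end differed by label, with the percentile 1 of log2 values between -6.77 and -6.69 in arrays labelled mesenteric and between -6.13 and -6.09 in those labelled perigonadal. A few arrays stood apart in marker sums of another tissue or cell type, and they are named beside some of the results that they touch. For other genes no value without these arrays is given. In the depot labelled mesenteric the arrays of J40 and J42 were high in epididymis genes. In the depot labelled perigonadal those of J5, J17, J40, J43 and N30 were high in skeletal muscle genes, and that of N74 was high in lymphocyte genes.

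Of the depot markers, Wt1, Upk3b and Tbx15 went against the label perigonadal alone, whereas Adam7 went against both labels. Wt1 lay at 0.284 to 0.567 (median 0.464) in the depot labelled mesenteric, against 0.0148 to 0.0165 (median 0.016) in that labelled perigonadal. The groups did not overlap, and the level in the depot labelled perigonadal stood at the percentile 4.7 of all probe sets, close to the dimmest signals. The paired log2 difference of Wt1 was 4.78 ± 0.07 (SE, n = 11 mice, adjusted p = 3.54e-15), a fold of 27.4, and it had the same sign in 11 of 11 mice. Upk3b lay at 1.24 to 3.8 (median 2.31) in the depot labelled mesenteric, against 0.074 to 0.0835 (median 0.0784) in that labelled perigonadal, a log2 difference of 4.84 ± 0.11 (adjusted p = 9.22e-13). Tbx15 had the opposite order, with 0.0459 to 0.0587 (median 0.0511) in the depot labelled mesenteric, against 0.432 to 0.646 (median 0.483) in that labelled perigonadal. Its log2 difference was -3.28 ± 0.06 (adjusted p = 3.71e-14), lower in 11 of 11 mice. Adam7 lay at 0.234 to 5.85 (median 0.259) in the depot labelled mesenteric, against 0.0172 to 0.0199 (median 0.0188) in that labelled perigonadal. Its 2 highest values were 5.85 in J40 and 1.33 in J42, but the lowest value in the depot labelled mesenteric was still above every value in that labelled perigonadal. The log2 difference of Adam7 was 4.48 ± 0.41 (adjusted p = 8.79e-07), and without J40 and J42 it was 3.88 ± 0.11 (n = 9 mice). Fabp2, which should mark gut beside mesenteric fat, was below the filter on low values, with medians of 0.0317 labelled mesenteric and 0.0359 labelled perigonadal. Fat RNA from several cell types was pooled in each array, so a lower value can mean fewer cells of a type or less RNA per cell, and these cannot be told apart.

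The other depots place these markers further, as a description without a test. These levels come from a joint normalization of the 47 day 0 arrays of the 4 labelled depots, whose deposited distributions differ between tissues. Across fat labelled mesenteric, perigonadal, perirenal and subcutaneous, the medians of Adam7 were 0.269, 0.0195, 0.0181 and 0.0221. In the same order those of Fabp2 were 0.0327, 0.037, 0.0333 and 13, and those of Tbx15 were 0.0529, 0.495, 0.127 and 0.052. Wt1 and Upk3b were both dimmest in the depot labelled perigonadal. An epididymal gene was thus raised in the depot labelled mesenteric and not in that labelled perigonadal, which had the highest level of a gene of subcutaneous fat. The depots are therefore called by their labels throughout, and no anatomical origin is assigned to them.

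**Figure D1:**
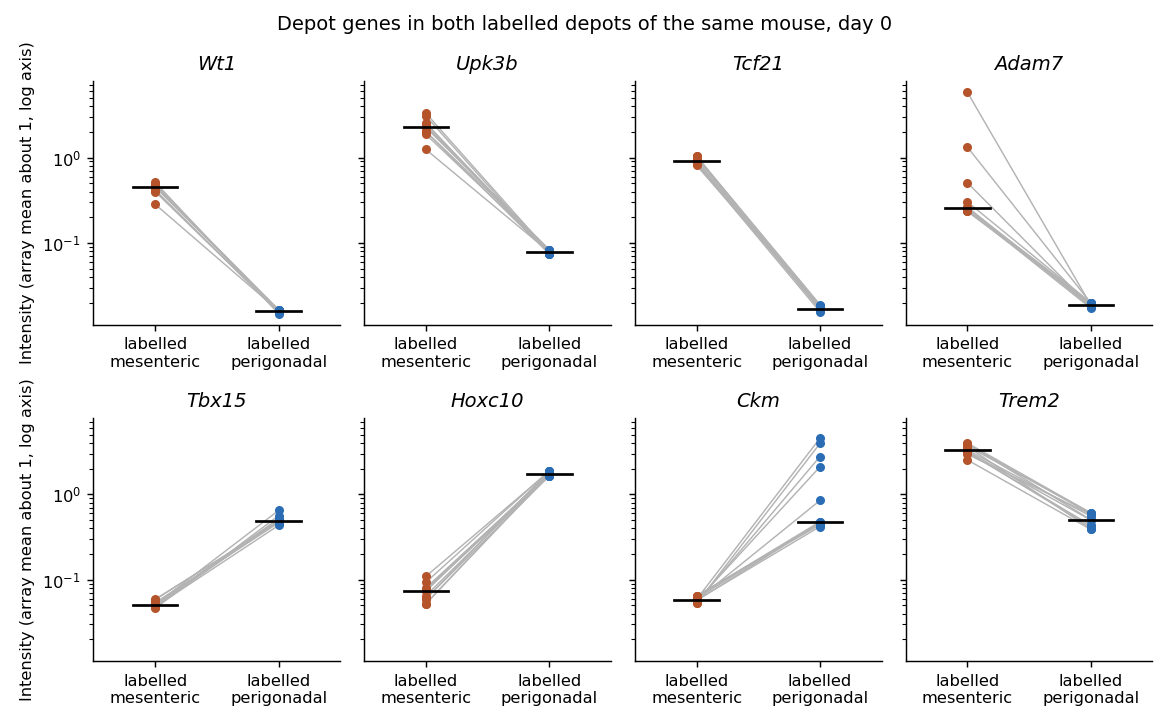
Intensity (log axis, array mean about 1) of 8 genes in the depot labelled mesenteric (left) and in that labelled perigonadal (right) of the 11 mice with both arrays. Grey lines join the arrays of a mouse and black bars are medians of these mice. Each gene separates the labels in every mouse, Adam7 has 2 outlying high values in the depot labelled mesenteric, and Ckm has 5 raised values in that labelled perigonadal.

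The difference between the depots reached most measured genes, mostly by small amounts. Of 13444 genes tested, 10570 passed the paired limma test at an adjusted p under 0.05 (78.6%), with 4433 higher (33%) and 6137 lower (45.6%) in the depot labelled mesenteric. With arrays centred on their medians in place of quantile normalization the split was 5011 higher and 5394 lower. The median absolute log2 difference was 0.20, and the median signed difference was -0.05. With a difference of at least 2-fold as a second condition, 753 genes were called (5.6%), of which 504 were higher (3.75%) and 249 lower (1.85%), against 466 and 306 without quantile normalization. The sign was the same in all 11 mice for 743 of these 753 genes. For 4818 genes (35.8%) the values of the labelled depots did not overlap. Because calls are so common, a list is described below by its counts and its median rather than by the presence of calls. Each count stands against the 33% of genes higher and 45.6% lower over all genes tested.

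The same contrast was fitted in 64 other mice, restricted for 1 to 60 days, whose arrays the day 0 comparison did not use. There 12059 of 13444 genes were called (89.7%). All 753 genes with a 2-fold difference at day 0 had the same sign in these mice and were called. Of the 10570 genes called at day 0, 10521 had the same sign. These mice repeat the labelled depots but not the unrestricted state.

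**Figure D2:**
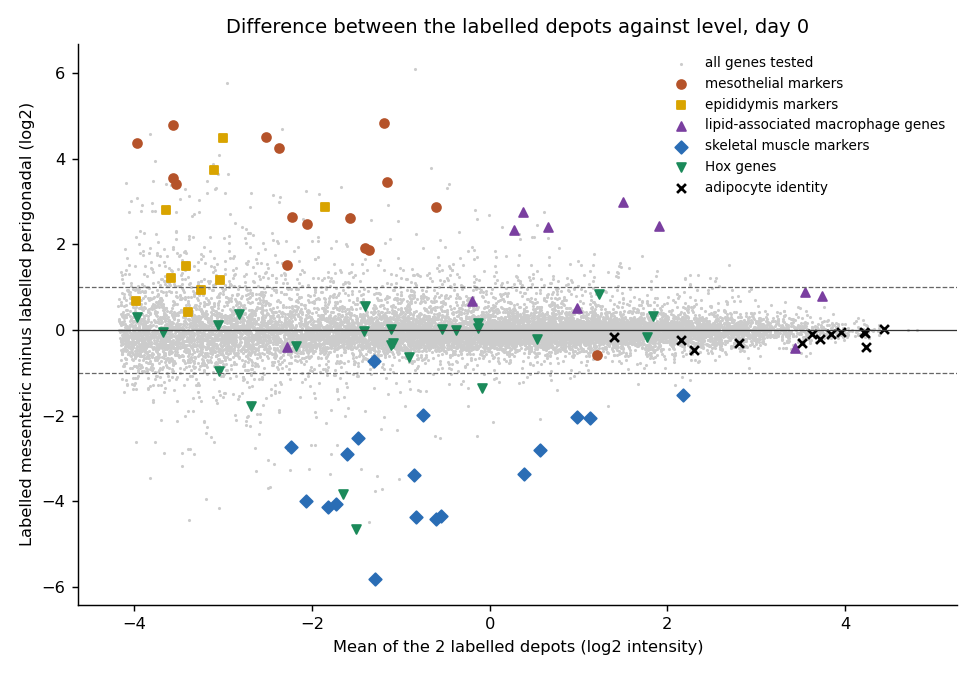
Log2 difference, labelled mesenteric minus labelled perigonadal (y axis), against the mean of both depots (x axis, log2 intensity) for the 13444 genes tested at day 0, with members of 6 lists marked. Dashed lines mark a 2-fold difference. Mesothelial markers other than Cldn15 and all epididymis markers tested lie above 0, and skeletal muscle markers lie below 0. Adipocyte identity genes lie close to 0 at the bright end.

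Nearly all genes of the mesothelium were higher in the depot labelled mesenteric. Of 16 mesothelial markers, all tested, 15 were higher and 1 was lower, with a median log2 difference of 3.13. Msln, which encodes the surface protein mesothelin, lay at 0.395 to 1.36 (median 0.836) in the depot labelled mesenteric, against 0.0304 to 0.0398 (median 0.0355) in that labelled perigonadal. Its log2 difference was 4.50 ± 0.10 (adjusted p = 3.57e-13). Bnc1, a zinc finger transcription factor gene of mesothelium, differed by 4.35 ± 0.10, with medians of 0.285 labelled mesenteric and 0.0133 labelled perigonadal. Krt8, an epithelial keratin gene, differed by 4.24 ± 0.24, and its highest value, 3.06, was in J40. The epididymis also expresses Krt8, and without J40 and J42 its difference was 4.04 ± 0.18. The exception was Cldn15, a claudin gene, named after its values were seen, at -0.58 ± 0.04. Summed over the 16 genes, intensity ran from 11.4 to 20.2 in the depot labelled mesenteric, against 3.93 to 4.41 in that labelled perigonadal.

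Slpi, Chst4, Mgam and Rnf128 were also among the 15 genes with the largest differences on this side. Slpi, which encodes a leukocyte protease inhibitor, had the largest difference of all genes tested. It lay at 2.64 to 6.84 (median 4.43) in the depot labelled mesenteric, against 0.0456 to 0.092 (median 0.0653) in that labelled perigonadal, a log2 difference of 6.08 ± 0.12 (adjusted p = 5.21e-13). Chst4, a sulfotransferase gene, had medians of 0.286 labelled mesenteric and 0.0174 labelled perigonadal and differed by 3.94 ± 0.10. Mgam, the maltase-glucoamylase gene, and Rnf128, an E3 ubiquitin ligase gene, differed by 4.56 ± 0.09 and 3.77 ± 0.07. None of these 4 genes, picked for their large differences, overlapped between the labelled depots, which held for 35.8% of all genes tested.

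Several genes that pattern the depots also separated the labels. Tcf21, a basic helix-loop-helix factor of visceral fat progenitors, lay at 0.808 to 1.09 (median 0.951) in the depot labelled mesenteric, against 0.0156 to 0.0189 (median 0.0168) in that labelled perigonadal. The spread within each label was narrow, and the log2 difference of 5.75 ± 0.04 had the smallest adjusted p of all genes tested (1.63e-18). Shox2, a short-stature homeobox gene that is higher in subcutaneous fat of mice, lay at 0.0274 to 0.0376 (median 0.0335) in the depot labelled mesenteric, against 0.222 to 0.275 (median 0.24) in that labelled perigonadal, a difference of -2.87 ± 0.04 (adjusted p = 4.88e-15). Tbx5, a T-box gene of the limb and heart field, differed by -1.62 ± 0.05 with medians of 0.0822 labelled mesenteric and 0.249 labelled perigonadal, but its other probe set differed by -0.10. Lhx8, a LIM homeobox gene named after its values were seen, differed by -3.37 ± 0.10 with medians of 0.0865 labelled mesenteric and 0.893 labelled perigonadal. Of 26 depot transcription factors, 24 were on the array, 19 passed the filter, 5 were higher and 10 were lower, with a median of -0.39. These are 26.3% higher and 52.6% lower, against 33% and 45.6% over all genes tested. Tcf21 alone was at least 2-fold higher, and 6 were at least 2-fold lower.

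The Hox genes, which set position along the body axis, gave large differences in paralog groups 9 and 10. Low paralog numbers are expressed towards the head and high numbers towards the tail. Of 39 Hox genes, 32 were on the array and 24 passed the filter, of which 5 were higher and 10 were lower. These are 20.8% higher and 41.7% lower, against 33% and 45.6% over all genes tested. Hoxc10 had the second largest difference among lower genes. It lay at 0.0518 to 0.109 (median 0.0689) in the depot labelled mesenteric, against 1.64 to 1.89 (median 1.73) in that labelled perigonadal, a log2 difference of -4.63 ± 0.09 (adjusted p = 8.55e-14), lower in 11 of 11 mice. Hoxa10 lay at 0.0469 to 0.14 (median 0.0715) in the depot labelled mesenteric, against 1.02 to 1.39 (median 1.2) in that labelled perigonadal, a difference of -3.84 ± 0.15. Hoxa9 differed by -1.76 ± 0.05, with medians of 0.0827 labelled mesenteric and 0.281 labelled perigonadal. Hoxc9 differed by -1.34 ± 0.04, with medians of 0.584 labelled mesenteric and 1.46 labelled perigonadal. None of these 4 genes overlapped between the labels, which held for 35.8% of all genes tested.

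The split by paralog number was made after the values were seen. In paralog groups 9 and 10, 6 of the 7 genes tested were lower and 0 were higher, with a median of -1.34. The 1 not called was Hoxd9, at -0.17 ± 0.09. It was lower in 9 of 11 mice, with within-mouse differences from -0.44 to 0.67. Its highest value labelled mesenteric was 5.69, against a median of 2.98. In groups 1 to 8, 5 of 16 were higher, 4 were lower and 7 were not called, with a median of 0.04. Hoxc4 was the largest of those that were higher, with medians of 3.18 labelled mesenteric and 1.78 labelled perigonadal and a difference of 0.84 ± 0.04. Hoxa5, a gene of anterior and visceral fat, did not pass the test at 0.02 ± 0.05 (adjusted p = 0.74). In groups 11 to 13, 1 gene was tested and it was not called, Hoxb13 at -0.06 ± 0.04. The genes tested in cluster B lay between -0.36 and 0.56, with Hoxb6 at 0.56 ± 0.15 and Hoxb9 at -0.36 ± 0.12. Within mice Hoxb6 differed by 0.18 to 2.17, with a highest value labelled mesenteric of 1.38 against a median of 0.401. Hoxb9 differed by -0.69 to 0.81 within mice and was lower in 10 of 11. In cluster D, Hoxd8 differed by 0.34 ± 0.07 and Hoxd10 by -0.95 ± 0.12, lower in 11 of 11 mice. Hoxd9, Hoxb13 and these 4 genes were named after their values were seen, and differences between clusters were not tested. Hoxc8 had no named probe set here.

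**Figure D3:**
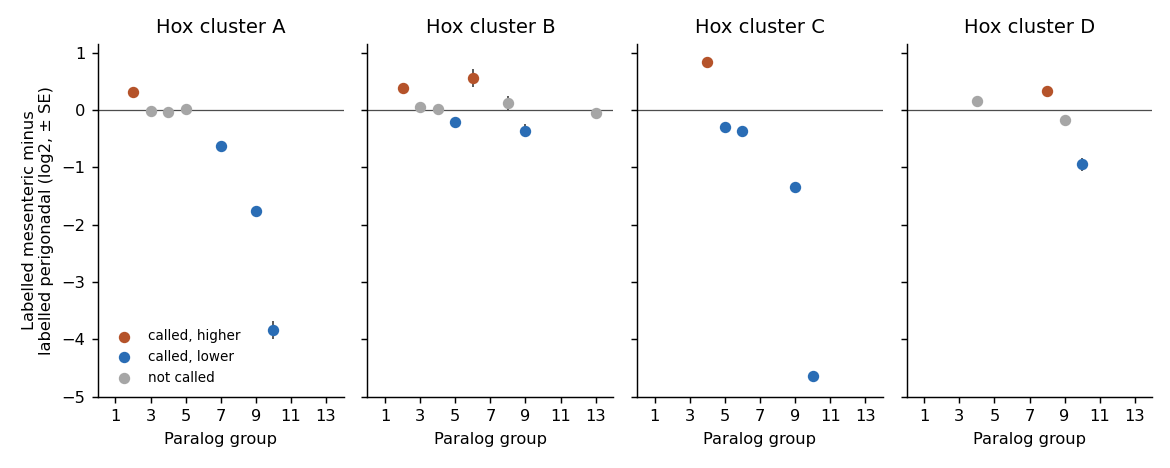
Log2 difference, labelled mesenteric minus labelled perigonadal, ± SE (y axis) of the 24 Hox genes tested, by paralog group (x axis) in the 4 clusters. In clusters A and C the difference falls to -3.84 for Hoxa10 and -4.63 for Hoxc10, in cluster D to -0.95 for Hoxd10, and the genes of cluster B lie between -0.36 and 0.56.

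The epididymis markers that passed the filter were higher in the depot labelled mesenteric of every mouse. Of 16 epididymis markers, 13 were on the array, 10 passed the filter and 10 were higher, with a median of 1.35. The 3 others were below the filter, which can keep a dim gene through the depot where it is high, so the count of 10 of 10 is no more than a description. Lcn5, an epididymal lipocalin gene that binds retinoids, lay at 0.269 to 6.42 (median 0.33) in the depot labelled mesenteric, against 0.0627 to 0.0792 (median 0.0716) in that labelled perigonadal, a log2 difference of 2.87 ± 0.45. Without J40 and J42 it was 2.17 ± 0.06. Spink8, a protease inhibitor gene, and Defb42, a defensin gene of the epididymis, had highest values of 4.36 and 5.52 among the arrays labelled mesenteric, where the perigonadal arrays reached 0.0235 and 0.0209, and differed by 3.72 ± 0.45 and 4.07 ± 0.45. Their differences without J40 and J42 were 3.07 ± 0.14 and 3.40 ± 0.09. Serpina1f, a serpin gene, differed by 3.86 ± 0.46, and by 3.19 ± 0.08 without these mice. Cuzd1, a gene of secretory epithelia, spread from 0.209 to 7.56 (median 0.757) in the depot labelled mesenteric, against 0.0246 to 0.0349 in that labelled perigonadal.

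The summed epididymis signal showed a common level and 2 outlying mice. Over the 13 genes on the array the sum lay between 1.85 and 2.59 in 10 arrays labelled mesenteric, at 7.93 in J42 and at 22.8 in J40. It lay between 0.563 and 0.606 in the 11 arrays labelled perigonadal. The 10 arrays without a high sum were thus still above every array labelled perigonadal. Without J40 and J42, 10676 genes were called and 723 of them at 2-fold or more, and the mesothelial count stayed at 15 higher and 1 lower. The part of attached epididymis in other differences was not tested. Seminal vesicle markers, a neighbouring gland, summed to 0.252 to 0.474 in the depot labelled mesenteric, against 0.297 to 0.322 in that labelled perigonadal. The 0.474 was J40, and the next highest sum labelled mesenteric was 0.290 in J5, below every array labelled perigonadal. Of the 2 genes tested, 0 passed limma's test, also at an unadjusted p under 0.05.

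Skeletal muscle genes had the largest list median on the lower side. Of 18 muscle markers, all tested, 18 were lower and 0 were higher, with a median log2 difference of -3.12, and 17 were at least 2-fold lower. Myh4, the myosin heavy chain gene of the fastest fibres, lay at 0.029 to 0.0632 (median 0.0337) in the depot labelled mesenteric, against 0.512 to 12.8 (median 0.925) in that labelled perigonadal. Its log2 difference of -5.82 ± 0.63 (adjusted p = 3.57e-06) was the largest on this side. Ckm, the muscle creatine kinase gene, lay at 0.0525 to 0.0644 (median 0.0581) in the depot labelled mesenteric, against 0.419 to 4.55 (median 0.477) in that labelled perigonadal, a difference of -4.06 ± 0.42 (adjusted p = 2.31e-06). Mylpf, a regulatory light chain gene of fast fibres, and Atp2a1, the calcium pump gene of their reticulum, differed by -4.35 ± 0.44 and -4.34 ± 0.48. Tnnt3, the fast troponin T gene, and Ttn, the giant sarcomere protein gene, differed by -4.41 ± 0.52 and -4.12 ± 0.42. Mybpc2, Ampd1, Smpx, Myh1, Myot and Tcap, all genes of the sarcomere or of muscle energy supply, lay between -4.47 and -3.72.

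The size of these muscle differences depended on 5 mice, but their direction did not. The summed signal of the 18 genes lay between 5.59 and 7.25 in the 12 arrays labelled mesenteric. In the depot labelled perigonadal it lay between 19.5 and 21.3 in 6 arrays, at 39.7 in J5, 85.2 in J43, 104 in J17, 122 in N30 and 130 in J40. Without the 5 mice with raised sums, Ckm differed by -2.90 ± 0.04 and Myh4 by -3.95 ± 0.17 (n = 6 mice), each lower in every mouse left. All 18 markers were also lower in the 4 mice without any array that stood apart, with a median of -2.08. Without the 5 mice, 9934 genes were called, 694 of them at 2-fold or more. Drp2, a dystrophin-related gene of Schwann cells and not of muscle, did not follow the muscle sums: it lay at 0.0951 to 0.129 (median 0.112) in the depot labelled mesenteric, against 1.24 to 1.77 (median 1.52) in that labelled perigonadal, and its difference was -3.75 ± 0.06 over all mice and -3.75 ± 0.06 without those 5. The other probe set of Drp2 differed by -0.76.

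**Figure D4:**
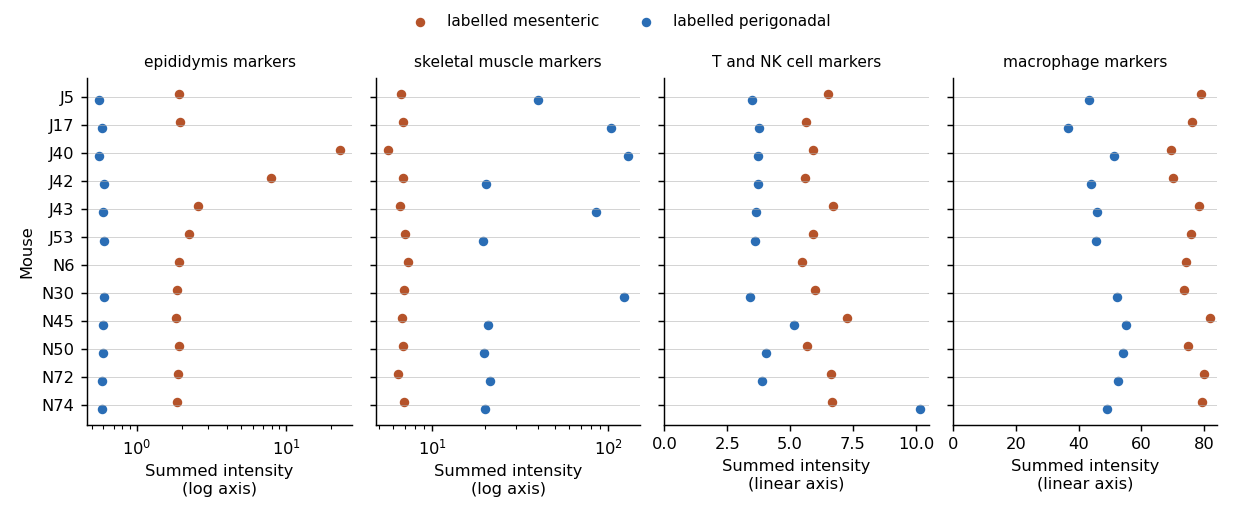
Summed intensity (x axis, log axis in the left pair of panels and linear in the right pair) of the markers on the array for epididymis (13 genes), skeletal muscle (18), T and NK cells (13) and macrophages (17) in each mouse (y axis), for the depot labelled mesenteric (brown, drawn above) and that labelled perigonadal (blue). J40 and J42 are high in epididymis markers, 5 mice are high in muscle markers, N74 is high in T and NK markers, and the macrophage sums separate in every mouse.

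Promoters of the muscle genes are shown because these genes moved together in the same arrays. MyoD-family factors bind an E-box with the letters CAGCTG, which reads the same on both strands. Of the 18 muscle genes, 14 have a promoter in the RefSeq set used (GRCm38.p6, 250 bases before to 50 after the start, 17 promoters in all). This E-box was present in 9 of the 17 promoters (52.9%), those of 8 genes, against 5355 of 32851 promoters of that set (16.3%). The 2 with the largest differences among the 8 genes are printed 5′ to 3′ on the gene's strand, with the E-box in capitals. A match is no evidence of binding in fat.
Myh4, chr11:67237562-67237861, plus strand: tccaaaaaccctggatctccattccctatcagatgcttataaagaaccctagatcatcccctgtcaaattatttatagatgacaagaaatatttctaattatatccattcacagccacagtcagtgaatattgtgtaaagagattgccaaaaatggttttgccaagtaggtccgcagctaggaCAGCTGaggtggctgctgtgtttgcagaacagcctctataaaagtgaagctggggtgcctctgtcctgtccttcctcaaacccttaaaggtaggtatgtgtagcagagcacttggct
Mylpf, chr7:127211358-127211657, plus strand: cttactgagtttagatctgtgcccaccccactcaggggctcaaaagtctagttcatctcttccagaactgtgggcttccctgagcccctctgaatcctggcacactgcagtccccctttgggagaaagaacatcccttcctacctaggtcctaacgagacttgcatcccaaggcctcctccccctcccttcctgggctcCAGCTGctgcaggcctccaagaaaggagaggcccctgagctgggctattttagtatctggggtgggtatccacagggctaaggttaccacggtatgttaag

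Macrophage genes, general markers and those of lipid-laden macrophages, were mostly higher in the depot labelled mesenteric. Of 18 macrophage markers, 16 were tested, 14 were higher and 0 were lower, with a median of 0.61. Cd68, a lysosomal protein gene of phagocytes, lay at 8.99 to 11.9 (median 10.8) in the depot labelled mesenteric, against 2.92 to 4.73 (median 4.13) in that labelled perigonadal, a log2 difference of 1.51 ± 0.06 (adjusted p = 2.87e-10). Msr1, a scavenger receptor gene, and Fcgr1, an Fc receptor gene, differed by 1.43 ± 0.06 and 1.37 ± 0.07. The summed intensity of the 17 genes on the array ran from 69.6 to 82 in the depot labelled mesenteric, against 36.6 to 55.1 in that labelled perigonadal. The 2 genes tested and not called were Cx3cr1 and Cd163, named after their values were seen.

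Lipid-associated macrophages gather around dying fat cells in obesity and carry the receptor TREM2. Trem2 lay at 2.53 to 3.99 (median 3.24) in the depot labelled mesenteric, against 0.388 to 0.607 (median 0.503) in that labelled perigonadal, a log2 difference of 2.75 ± 0.06 (adjusted p = 3.33e-13). One of its 3 probe sets lay at -0.12, and with the mean of all of them the difference was 1.87. Gpnmb, a lysosomal glycoprotein gene, lay at 7.64 to 9.8 (median 8.63) in the depot labelled mesenteric, against 1.24 to 1.97 (median 1.74) in that labelled perigonadal, a difference of 2.42 ± 0.05. Itgax, which encodes CD11c, differed by 2.40 ± 0.05 with medians of 3.53 labelled mesenteric and 0.687 labelled perigonadal. Mmp12, the macrophage elastase gene, differed by 2.99 ± 0.11 with medians of 7.82 labelled mesenteric and 1.07 labelled perigonadal. Lgals3, the galectin 3 gene, differed by 0.88 ± 0.02, with medians of 15.9 labelled mesenteric and 8.9 labelled perigonadal. Of 14 genes of this list, 11 were tested, 9 were higher and 2 were lower, with a median of 0.88. The 2 lower ones, named after their values were seen, were Acp5, a phosphatase gene, at -0.41 ± 0.02, and Cd300lf, an inhibitory receptor gene, at -0.40 ± 0.04. The E-box CACGTG, bound by lysosomal regulators of the MITF and TFE family, was in 0 of the 13 RefSeq promoters of 10 of these genes, against 7.15% of all promoters.

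Chemokine and antigen presentation genes were mostly higher as well. Cxcl2, a neutrophil chemokine gene, had medians of 0.391 labelled mesenteric and 0.0902 labelled perigonadal and differed by 2.08 ± 0.09. Ccl3 and Ccl2, genes of chemokines that recruit monocytes, differed by 1.54 ± 0.06 and 0.93 ± 0.05. Cxcl14, a chemokine gene of fibroblasts and epithelia, had the opposite sign at -2.15 ± 0.09, with medians of 0.483 labelled mesenteric and 2.18 labelled perigonadal. Of 21 chemokines and receptors tested, 14 were higher and 6 were lower, and without J40 and J42 the counts were 14 and 2. Of 10 MHC class II genes, all tested, 7 were higher and 0 were lower, with a median of 0.40. H2-DMa and H2-Aa, genes of peptide loading and of presentation, differed by 0.99 ± 0.06 and 0.42 ± 0.03. Among cell cycle genes, 17 of 20 tested were higher, against 33% of all genes, and 1 was lower, with a median of 0.48. Birc5, the survivin gene, differed by 0.88 ± 0.03 with medians of 1.23 labelled mesenteric and 0.659 labelled perigonadal, and Aurkb, a mitotic kinase gene, by 0.69 ± 0.04.

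Most T and NK cell, mast cell and interferon genes tested were lower in the depot labelled mesenteric. Of 12 T and NK cell markers tested, 8 were lower (66.7%) and 1 was higher (8.33%), with a median of -0.25. Over all genes 45.6% were lower and 33% higher. Cd3d, a chain gene of the T cell receptor complex, had medians of 0.229 labelled mesenteric and 0.416 labelled perigonadal and differed by -1.08 ± 0.18, and by -0.91 ± 0.08 without N74, whose value in the depot labelled perigonadal was the highest at 1.74. Cd8a differed by -1.15 ± 0.17, and by -0.98 ± 0.06 without N74. The 1 higher member was Il7r, the interleukin 7 receptor gene, at 2.46 ± 0.12 with medians of 3.21 labelled mesenteric and 0.592 labelled perigonadal. The summed signal of the 13 markers on the array, Il7r included, had medians of 5.94 in the depot labelled mesenteric and 3.73 in that labelled perigonadal, although most members were lower. Of 9 mast cell markers tested, 7 were lower and 0 were higher, but the groups overlapped for the proteases Mcpt4 (-0.97 ± 0.24) and Cpa3 (-0.87 ± 0.18), and in J mice alone 2 were lower. Of 15 interferon response genes, 12 were lower and 0 were higher, with a median of -0.32, and Irf7, an interferon regulatory factor gene, differed by -0.84 ± 0.03.

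**Figure D5:**
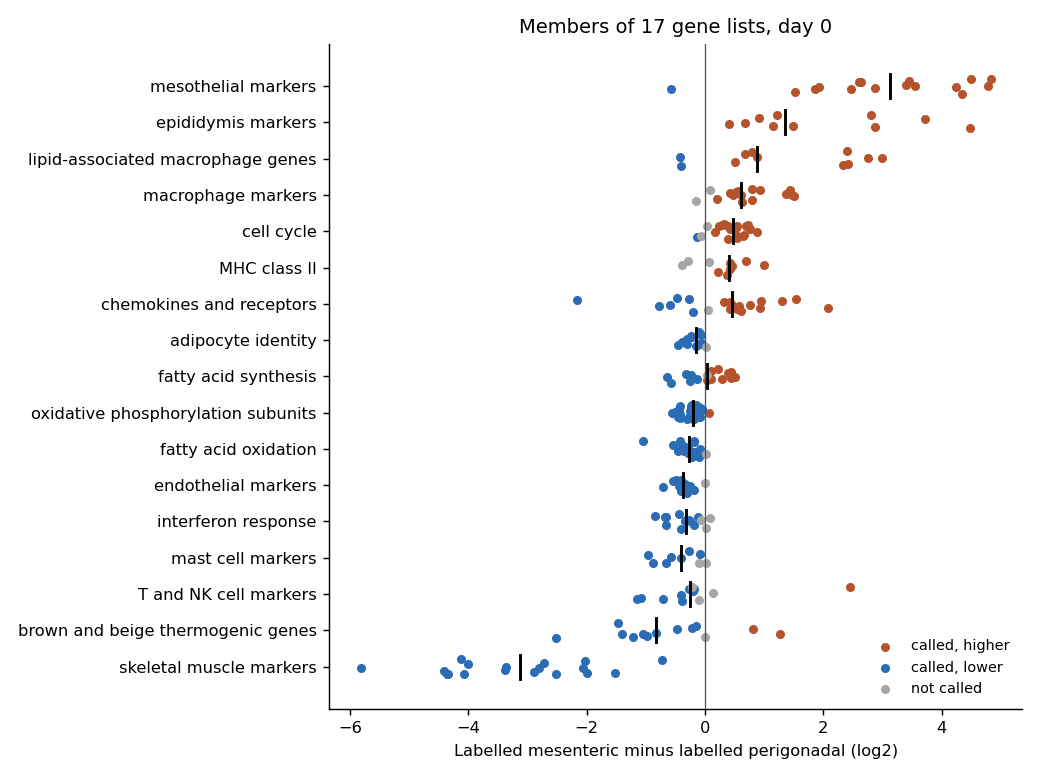
Log2 difference, labelled mesenteric minus labelled perigonadal (x axis), of each tested member of 17 gene lists, with black bars at the list medians. Brown points were called higher, blue points lower and grey points were not called. The list medians run from 3.13 for mesothelial markers to -3.12 for skeletal muscle markers, and the adipocyte identity, oxidative phosphorylation and fatty acid oxidation lists lie close to 0 with most members on the lower side.

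Most genes that define a fat cell were lower in the depot labelled mesenteric, by small amounts. Adipoq, the adiponectin gene, lay at 18 to 18.4 (median 18.3) in the depot labelled mesenteric, against 18.6 to 19.2 (median 19) in that labelled perigonadal, which is the percentile 99.9 of all probe sets in both. Its log2 difference of -0.06 ± 0.01 (adjusted p = 1.82e-05) had the same sign in 11 of 11 mice, but with arrays centred on their medians it was -0.02 (adjusted p = 0.106). Lep, the leptin gene, was also at the percentile 99.9 and differed by 0.06 ± 0.01, with overlapping groups. Whether signals so near the top of the scale are compressed was not tested. Pparg, the nuclear receptor gene that drives fat cell formation, differed by -0.46 ± 0.04, lower in 11 of 11 mice, and Pnpla2, the first lipase gene of fat breakdown, by -0.31 ± 0.02. Of 13 adipocyte identity genes tested, 12 were lower and 0 were higher, with a median of -0.15, against -0.05 over all genes tested. With arrays centred on their medians the counts were 8 lower and 1 higher.

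Among secreted factors of fat, 3 stood out. Agt, the angiotensinogen gene, lay at 2.12 to 3.35 (median 2.77) in the depot labelled mesenteric, against 0.382 to 0.712 (median 0.587) in that labelled perigonadal, a log2 difference of 2.23 ± 0.09 (adjusted p = 1.63e-10). Metrnl, which encodes a meteorin-like hormone, differed by 1.05 ± 0.03. Nrg4, an epidermal growth factor family gene of fat and brown fat, differed by -0.88 ± 0.05 with medians of 2.95 labelled mesenteric and 5.29 labelled perigonadal. Of 13 adipokine genes tested, 6 were higher (46.2%) and 6 were lower (46.2%). Sfrp5, a Wnt inhibitor gene that rises when fat expands, differed by 0.09 ± 0.03 with overlapping groups. Of 12 genes of fat expansion 3 were higher (25%) and 8 were lower (66.7%), against 33% and 45.6% over all genes. Tph2, a tryptophan hydroxylase gene, was the largest at 1.06 ± 0.09.

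Genes of heat production and mitochondrial oxidation were lower in the depot labelled mesenteric. Cidea, a lipid droplet protein gene of brown and beige fat, lay at 0.213 to 0.335 (median 0.287) in the depot labelled mesenteric, against 1.1 to 2.13 (median 1.59) in that labelled perigonadal, a log2 difference of -2.51 ± 0.09 (adjusted p = 6.95e-11). Ucp1, the uncoupling protein gene, lay at 0.064 to 0.0858 (median 0.0736) in the depot labelled mesenteric, against 0.158 to 0.316 (median 0.194) in that labelled perigonadal, a difference of -1.46 ± 0.09, with both depots far below the 13.1 median of the depot labelled perirenal. Otop1, Ppargc1a and Prdm16, a proton channel gene and 2 regulators of the thermogenic programme, differed by -1.21 ± 0.05, -0.99 ± 0.05 and -0.82 ± 0.04. Of 13 thermogenic genes tested, 10 were lower and 2 were higher, with a median of -0.82. The 2 higher ones, named after their values were seen, were Slc27a2, a fatty acid transporter gene, at 1.27 ± 0.24 and Pank1, a coenzyme A synthesis gene, at 0.81 ± 0.12. Their within-mouse differences ran from 0.20 to 3.07 and from 0.55 to 2.09. The highest values labelled mesenteric were 0.388 and 0.813, against medians of 0.0891 and 0.293. Of 34 oxidative phosphorylation subunit genes tested, 33 were lower and 1 was higher, with a median of -0.21, against 45.6% lower over all genes. Ndufv1 and Cyc1, of complexes I and III, differed by -0.51 ± 0.02 and -0.45 ± 0.02. Of 20 fatty acid oxidation genes, 19 were lower and 0 were higher, and Cpt2 and Acadm differed by -0.54 ± 0.02 and -0.46 ± 0.02. Muscle, whose markers were also lower, is rich in the same transcripts. In the 4 mice without any array that stood apart 32 subunit genes were lower and 0 were higher. Muscle markers were also lower in these 4 mice, so this subset does not set muscle signal aside. The part of muscle in the oxidative differences was not tested. With arrays centred on their medians 29 were lower and 1 was higher.

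Genes of fat synthesis split. Of 17 tested, 9 were higher (52.9%) and 7 were lower (41.2%), against 33% and 45.6% over all genes, with a median of 0.04. Acly, the ATP citrate lyase gene, differed by 0.44 ± 0.02 with medians of 11.5 labelled mesenteric and 8.5 labelled perigonadal, and Scd2, a desaturase gene, by 0.39 ± 0.03. Acaca, the acetyl-CoA carboxylase gene, and Mlxipl, which encodes the glucose-sensing factor ChREBP, differed by -0.31 ± 0.02 and -0.57 ± 0.02. Fasn, the fatty acid synthase gene, did not pass the test at 0.03 ± 0.02 (adjusted p = 0.0964). Of 11 triglyceride assembly genes, 8 were lower (72.7%) and 2 were higher (18.2%), against 45.6% and 33% over all genes. Pck1, which supplies glycerol phosphate, differed by -0.61 ± 0.04, and Mogat2, an acyltransferase gene of the gut pathway, by 1.27 ± 0.09. All 7 lipolysis genes tested were lower, against 45.6% over all genes. G0s2, an inhibitor of the lipase, differed by -0.54 ± 0.03 and Hcar2, a receptor gene that restrains lipolysis, by -0.76 ± 0.05. Of 12 insulin signalling genes 8 were lower (66.7%) and 1 was higher (8.33%), against 45.6% and 33% over all genes. Grb14, an adaptor that inhibits the insulin receptor, was the largest at -1.76 ± 0.04, with medians of 1.35 labelled mesenteric and 4.64 labelled perigonadal.

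Blood vessel genes were mostly lower in the depot labelled mesenteric. Of 14 endothelial markers, 13 were lower (92.9%, against 45.6% over all genes) and 0 were higher, with a median of -0.36. Egfl7, a secreted endothelial factor gene, differed by -0.71 ± 0.02, and Pecam1, which encodes CD31, by -0.50 ± 0.03. The summed endothelial signal lay between 32.8 and 42.2 in the depot labelled mesenteric, against 47.3 to 52.3 in that labelled perigonadal. Of 5 lymphatic markers, 2 were higher (40%, against 33% over all genes) and 0 were lower. Pdpn, the podoplanin gene, which mesothelium also expresses, differed by 1.06 ± 0.07, and Lyve1 by 0.57 ± 0.20. Of 5 nerve markers tested, 3 were lower (60%) and 1 was higher (20%), against 45.6% and 33% over all genes. The higher one was Mbp, a myelin gene, at 0.13 ± 0.04, but its 4 probe sets ran from -3.37 to 0.61 and their mean was -1.24. Sox10, a Schwann cell transcription factor gene, differed by -2.04 ± 0.04, Ncmap, a myelin protein gene, by -1.97 ± 0.07, and S100b by -1.56 ± 0.06. None of these 3 genes overlapped between the labels, which held for 35.8% of all genes tested.

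Matrix genes differed in both directions, and a pair of basement membrane collagens stood out. Col4a6 lay at 0.214 to 0.343 (median 0.277) in the depot labelled mesenteric, against 0.0366 to 0.0435 (median 0.039) in that labelled perigonadal, a log2 difference of 2.75 ± 0.06 (adjusted p = 1.72e-13), and its neighbour Col4a5 differed by 1.39 ± 0.08. Of 24 collagen chain genes tested, 12 were higher (50%) and 12 were lower (50%), against 33% and 45.6% over all genes. Col1a1 and Col6a3, chains of fibrillar and microfibrillar collagen, differed by -0.31 ± 0.01 and -0.38 ± 0.02. Timp1, a metalloproteinase inhibitor gene, had medians of 1.15 labelled mesenteric and 0.266 labelled perigonadal and differed by 2.25 ± 0.06. Mmp3, the stromelysin gene, had the opposite sign at -2.47 ± 0.07, with medians of 0.379 labelled mesenteric and 2.12 labelled perigonadal. Lox, a collagen cross-linking enzyme gene, differed by -0.69 ± 0.03. Of 16 fibroblast and progenitor markers 9 were lower (56.2%) and 3 were higher (18.8%), with a median of -0.12. Over all genes 45.6% were lower and 33% higher. The summed signal of these markers overlapped, at 70.8 to 76.4 in the depot labelled mesenteric, against 70.6 to 83.4 in that labelled perigonadal.

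Signalling genes gave smaller differences with a few exceptions. Aldh1a2, the retinoic acid synthesis enzyme of mesothelium, lay at 0.596 to 0.887 (median 0.731) in the depot labelled mesenteric, against 0.146 to 0.245 (median 0.19) in that labelled perigonadal, a difference of 1.92 ± 0.06 (adjusted p = 3.56e-12), whereas the retinoic acid degrading enzyme gene Cyp26b1 differed by -0.81 ± 0.05 and the receptor gene Rarg by -0.57 ± 0.03. Of 13 retinoid genes tested, 7 were higher and 5 were lower. Sfrp1, a Wnt inhibitor gene, differed by 1.26 ± 0.08 and Dkk2 by -0.88 ± 0.08, and of 23 Wnt and BMP genes 9 were higher and 9 were lower. Hsd11b1, which regenerates active glucocorticoid, and Nr3c2, the mineralocorticoid receptor gene, differed by -0.57 ± 0.04 and -0.63 ± 0.03, and of 11 steroid genes 6 were lower and 3 were higher. F10 and F5, coagulation factor genes, and Plau, the urokinase gene, differed by 1.53 ± 0.05, 1.48 ± 0.08 and 1.33 ± 0.05, and of 15 complement and coagulation genes 8 were higher and 3 were lower. Shares higher and lower were 53.8% and 38.5% for retinoid genes and 39.1% and 39.1% for Wnt and BMP genes. They were 27.3% and 54.5% for steroid genes and 53.3% and 20% for complement and coagulation genes. Over all genes the shares were 33% and 45.6%.

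The mean within-mouse differences of the depot genes kept their sign on every day of restriction sampled. The difference of Wt1 was 4.78 ± 0.24 before restriction (SD, n = 11 mice), 4.76 ± 0.35 on day 7 (n = 11), 5.18 ± 0.28 on day 42 (n = 10) and 5.43 ± 0.24 on day 60 (n = 6). That of Tbx15 was -3.28 ± 0.22 before restriction, -3.48 ± 0.37 on day 7, -3.60 ± 0.33 on day 42 and -3.53 ± 0.23 on day 60. Hoxc10 lay between -4.93 at day 1 and -4.52 at day 14, and Trem2 between 2.45 at day 60 and 2.76 at day 21. Adam7 had SDs from 0.74 at day 14 to 2.22 at day 7, wider than those of Wt1 on every day. Lep differed by 0.06 ± 0.03 at day 0 and by -0.04 ± 0.19 at day 42. Changes of these differences over days were not tested.

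Of the 10570 called genes, 10553 had the same sign in N and J mice. All 753 genes with a 2-fold difference had the same sign in the means of the 5 N mice and of the 6 J mice. Tests of letter N against letter J on the within-mouse differences called 0 genes with limma (0%), and 1397 of 13444 had an unadjusted p under 0.05. In N mice alone 9700 genes were called, and in J mice alone 9112.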

How the data were processed

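The 23 day 0 arrays labelled mesenteric or perigonadal adipose were analysed, with 64 mice of later days for repetition. The deposited table holds 1 linear intensity per probe set and array. The steps by which the authors made each intensity (summary, normalization) are not stated in the labels used here, and the table has no detection calls. Of 32640 probe sets, 25508 carried 1 gene symbol and 7132 none (platform annotation, with 4066 symbols updated through RefSeq, GRCm38.p6), giving 16643 genes. Values were log2 transformed and quantile normalized over both groups with limma 3.58.1 (R 4.3.3). The probe set with the highest mean stood for a gene, and genes with a mean above the percentile 25 of all probe sets were tested (13444). The fit had mouse as a block, with trend and robust options, and all tests were two-sided. P-values were adjusted over all genes by the Benjamini-Hochberg method, with 0.05 as the limit for a call. The limma adjusted p-values rest on 11 mice. That number limits the precision.

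Replication IDs pair the arrays by animal, as the labels give them. Residual correlations of the 2 arrays of a mouse ran from -0.09 to 0.41 (median 0.13) and were above 0.1 in 6 of 11 mice. Among the 11 arrays labelled perigonadal, that of the same mouse ranked from 1 to 7 by this correlation (7 in J43 and 6 in N50). These values thus do not bear out the pairing in every mouse. The labels do not say whether RNA was processed in batches. The genes named were taken from the 15 with the largest difference in each direction and the same sign in all mice, up to 4 called members of each list with the smallest adjusted p, and 20 key genes reported whatever they showed. Others are stated as named after their values were seen. The members, lists and key genes were chosen with earlier results of these data known. Alternatives covered normalization, filter, probe set choice, pairing, letters and leaving out mice. The fit was tested on simulated data.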

Additional observations from a re-analysis of the deposited data

How the results depend on the processing

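The count of called genes kept within 1.5 times of 10570 under every alternative except that with every probe set on its own, which tests more features and called 18671. The count at 2-fold or more was 753, and it was 334 with a filter at the median of all probe sets, which tests fewer genes. Without the replicate block, over all 23 arrays, the counts were 10528 and 746, and the count for the difference in mice of later days was 11894 (12059 with the block). Leaving out 1 mouse at a time gave 10317 to 10806 called genes and 721 to 761 at 2-fold. In the 4 mice without an array that stood apart, a choice made after seeing the data like the other omissions of several mice, 9262 genes were called and 703 at 2-fold. All 753 genes kept their sign in that subset. The mean of all probe sets reversed Cd4 (0.17), Insr (0.10), Mbp (-1.24) and Mcm5 (-0.10), genes whose probe sets disagree in sign. Probe sets of 1 gene shared a sign but differed by over 1.5 times in fold for Lcn5 (2.87 to 3.57), Ttn (-4.41 to -2.34), Msr1 (0.96 to 1.61), Fcgr1 (0.59 to 1.37), Cxcl14 (-3.25 to -2.15), Scd2 (0.39 to 1.36), Col4a6 (2.08 to 2.75), Sfrp1 (1.26 to 1.97), F5 (0.84 to 1.48) and Plau (0.74 to 1.33), besides Tbx5 and Drp2. Hoxa5, which did not pass the test, was -0.0643 in J mice alone and ran from -0.0016 to 0.0615 with 1 mouse left out. Dim genes limit the folds: without quantile normalization Wt1 differed by 4.48, Tcf21 by 5.47 and Adam7 by 4.19.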

Other observations

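Several lists of neighbouring tissue were measured to see what the depots hold besides fat. Of 9 intestine markers, 7 were tested, 3 were higher (42.9%) and 3 were lower (42.9%), against 33% and 45.6% over all genes. Their sum ran from 2.38 to 3.22 in the depot labelled mesenteric, against 2.98 to 3.66 in that labelled perigonadal. Cdhr5, a brush border cadherin gene, differed by 0.67 ± 0.07, and Cdx2, the intestinal homeobox gene, by -0.94 ± 0.04, at medians of 0.0455 labelled mesenteric and 0.0887 labelled perigonadal. Lgals4, a galectin gene, had medians of 1.25 labelled mesenteric and 1.89 labelled perigonadal and differed by -0.56 ± 0.05. Apoa4, an apolipoprotein gene, had medians of 0.598 labelled mesenteric and 0.815 labelled perigonadal and differed by -0.48 ± 0.04. Of 6 pancreas markers on the array, 4 were below the filter. Skin and mammary epithelium markers gave 2 higher (33.3%) and 3 lower (50%) of 6 tested, with Krt79 at 0.75 ± 0.06 and Krt10 at -0.47 ± 0.03. Of 2 erythrocyte markers tested 1 was higher, Slc4a1, the red cell anion exchanger gene, at 0.43 ± 0.07.

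Of 8 B cell markers tested, 1 was higher (Jchain), 2 were lower and 5 were not called, with a median of -0.36. The summed signal of the 9 on the array, Jchain included, was higher in the depot labelled mesenteric in 10 of 11 mice. Its medians were 3.43 labelled mesenteric and 1.91 labelled perigonadal, although most members tested were not higher. No sum without Jchain is given. Jchain, the joining chain gene of plasma cells, had medians of 1.9 labelled mesenteric and 0.438 labelled perigonadal and differed by 1.70 ± 0.19, with overlapping groups. Cr2, a complement receptor gene of B cells, differed by -0.82 ± 0.16, and by -0.68 ± 0.10 without N74. The B cell sum of N74 in the depot labelled perigonadal was 7.49, the highest of that label, and N74 was the mouse with the opposite order.

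Probe sets without a gene symbol were called at a slightly lower rate than the named ones. Of 3901 above the filter, 2897 were called (74.3%), and 131 were called at 2-fold or more (3.36%), with 54 higher and 77 lower.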
